A study of Rattus norvegicus with 8 samples.

Results

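A set of 7 genes of microglia and the complement system was followed in the lower spinal cord of rats. No difference between trained and untrained animals was detected in any of them. For Cd68, Cx3cr1 and Itgam the counts were too low to exclude a 2-fold change. The genes were chosen by Ensembl identifier, as 7 of the 32883 genes in the deposited table, and their symbols came with the choice. They are Tyrobp (ENSRNOG00000020845), C1qa (ENSRNOG00000012807), C1qb (ENSRNOG00000012804), Aif1 (ENSRNOG00000000853), Cd68 (ENSRNOG00000037563), Cx3cr1 (ENSRNOG00000018509) and Itgam (ENSRNOG00000019728). The samples were 8 libraries from Sprague Dawley rats, an outbred laboratory strain, all taken 23 days after a spinal cord injury, which the series' design text gives as a hemisection at T9. The 4 trained libraries came from rats given training after that injury, and the 4 untrained libraries from injured rats without it. All animals were injured, and no uninjured cord was compared. The sources used here do not give the kind of training, the age and sex of the animals or how many animals a library holds, so the p-values measure the spread between these libraries, which may be technical. The design text describes the sampled cord as intact.

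Microglia are the resident macrophages of the central nervous system and its main source of the complement protein C1q. C1q is built from A, B and C chains, and it starts the classical complement pathway when it binds its target. Tyrobp, also called DAP12, is a membrane adaptor that passes signals from receptors such as Trem2 to the kinase Syk. Aif1, better known as IBA1, is an actin-binding protein whose antibody is the usual stain for microglia. Cx3cr1 is the receptor for fractalkine, a chemokine made by neurons, Itgam (CD11b) is the alpha chain of complement receptor 3, and Cd68 is a glycoprotein of the lysosomal membrane of phagocytes. Other macrophages carry these genes too.

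The label of microglia rested on some of these genes only. Transcripts were counted as unique molecular identifiers (UMIs), short random tags that let each captured molecule be counted once, and the libraries held 192472 to 453390 UMIs. Tyrobp gave 1728 UMIs over the 8 libraries, C1qb 1011, Aif1 213 and C1qa 155. Cd68 gave 23 UMIs, Cx3cr1 12 and Itgam 1. So Cx3cr1 and Itgam, both used to define microglia, were at or near the detection limit, whereas Tyrobp and C1qb were abundant. The pairing of identifiers and symbols could not be checked against a table, and whether the annotation used for counting covers the 3′ ends of Cx3cr1 and Itgam was not tested, so their low counts do not show that the genes were not expressed. For a gene with 0 UMIs in a library, 3 counts were taken as the limit, equal to 6.66 CPM (UMIs per 1000000 of the scaled library size) in the deepest library and 18.4 CPM in the shallowest. These limits, and the intervals on counts below, cover counting error only. The genes that passed the filter on low counts were Tyrobp, C1qb, Aif1 and C1qa, 4 of the 7. Because whole cord tissue was measured, fewer microglia and less RNA per microglial cell cannot be told apart.

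The promoters of C1qb and C1qa are shown because these genes encode chains of 1 protein and had the highest correlation of the 6 pairs of tested genes. In the RefSeq annotation of assembly GRCr8 the order of the genes on chromosome 5 is C1qb, C1qc, C1qa. The sequences are the 250 bases before each gene's start, 5′ to 3′ on the minus strand, from RefSeq (GRCr8). The C1qb sequence is chr5:154407828-154408077 and the C1qa sequence is chr5:154419934-154420183. Capitals mark GAGGAA, the PU box bound by the myeloid factor PU.1, or GGAAGT, a core shared by many factors of its ETS family, on either strand (TTCCTC and ACTTCC on the other).
C1qb: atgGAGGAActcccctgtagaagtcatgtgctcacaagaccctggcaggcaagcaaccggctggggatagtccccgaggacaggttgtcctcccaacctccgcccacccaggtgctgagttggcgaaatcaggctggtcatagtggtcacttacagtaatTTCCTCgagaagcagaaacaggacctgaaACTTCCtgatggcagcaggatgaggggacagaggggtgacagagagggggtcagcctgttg
C1qa: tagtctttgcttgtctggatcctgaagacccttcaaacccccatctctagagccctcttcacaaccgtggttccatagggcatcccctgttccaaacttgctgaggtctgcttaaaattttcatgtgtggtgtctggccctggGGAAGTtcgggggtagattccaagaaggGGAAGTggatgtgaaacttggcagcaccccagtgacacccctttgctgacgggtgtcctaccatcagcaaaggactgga
The C1qb sequence held GAGGAA at 2 places, which began 247 and 90 bases before the start, and GGAAGT at 1 place, 61 bases before it. The C1qa sequence held no GAGGAA, and GGAAGT at 2 places, which began 107 and 79 bases before the start. Of all 33469 promoter windows of this length, 23.3% held GAGGAA and 19.2% held GGAAGT. These matches describe the letters and show no binding. The promoter table matched 5 of the 7 symbols, Aif1 and Tyrobp not among them.

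The first comparison asked whether training after the injury went with a different level of these genes. None of the 4 genes tested differed between trained and untrained libraries, and the edgeR test called 0% of all 4086 genes (0 genes, and 52 at an unadjusted p under 0.05). DESeq2 and limma-voom also called 0 genes. Fitted with the replicate number of the titles as a block, edgeR called 0.0489% of all genes, none of them among the 4. These were 2 genes, and 171 (4.19%) had an unadjusted edgeR p under 0.05, against the 52 (1.27%) without the block. The fit without the block leaves differences between replicate numbers in its spread, so it may miss more. The SEs, intervals and adjusted p-values for training given below are from the fit without this block unless the block is named. The trained and untrained libraries overlapped for all 4, while 1.10% of all genes tested had groups that did not overlap. The median absolute log2 fold change was 0.04 over these 4 genes and 0.15 over all genes tested, and the median log2 fold change was -0.02 and 0.01.

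Tyrobp, the adaptor, had the highest level of the 7. It stood at 576, 794, 938 and 739 CPM in untrained replicates 1 to 4 and at 884, 741, 533 and 624 CPM in trained replicates 1 to 4. The highest and the lowest of the 8 values came from libraries of the same number, untrained replicate 3 and trained replicate 3. The mean of the 4 untrained libraries was 762 ± 150 CPM and that of the 4 trained ones 696 ± 152 CPM (± SD). The log2 fold change was -0.12 ± 0.21 (SE), with a 95% interval from -0.57 to 0.33 and an edgeR adjusted p of 0.99998. Its mean level was above that of 98.4% of the 13048 genes with a UMI in any library. Its values spread 1.76-fold between the lowest and the highest library, the narrowest range of the 4 genes tested. Counting error alone gives an SD of 7.28% of the mean for Tyrobp, 9.52% for C1qb, 20.8% for Aif1 and 24.4% for C1qa. The ranges therefore do not compare the genes at equal counting error.

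C1qb, which encodes the B chain of C1q, stood at 233, 572, 414 and 515 CPM in untrained replicates 1 to 4. In trained replicates 1 to 4 it stood at 447, 468, 214 and 527 CPM. One library of each group was low, untrained replicate 1 and trained replicate 3, and the other 6 lay between 414 and 572 CPM. The mean of the 4 untrained libraries was 434 ± 149 CPM and that of the 4 trained ones 414 ± 137 CPM (± SD). The log2 fold change was -0.06 ± 0.28 (SE; 95% interval -0.66 to 0.54, edgeR adjusted p = 0.99998), and 0.01 ± 0.19 with the replicate block.

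C1qa, which encodes the A chain, stood at 41.9, 65.4, 66.7 and 86.6 CPM in untrained replicates 1 to 4 and at 65.3, 56.6, 24.5 and 118 CPM in trained replicates 1 to 4. The trained libraries held both the lowest and the highest value, and the untrained libraries lay between them. The lowest value rested on 4 UMIs, for which the exact 95% Poisson interval ran from 1.09 to 10.2 UMIs. The mean of the 4 untrained libraries was 65.1 ± 18.3 CPM and that of the 4 trained ones 66.2 ± 38.9 CPM (± SD). The log2 fold change was 0.03 ± 0.37 (SE; 95% interval -0.74 to 0.80, edgeR adjusted p = 0.99998).

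Aif1, the gene of the IBA1 stain, stood at 83.8, 65.4, 105 and 109 CPM in untrained replicates 1 to 4. In trained replicates 1 to 4 it stood at 92.9, 134, 49.0 and 86.1 CPM. Again the extremes were both trained, with replicate 2 the highest and replicate 3 the lowest. The lowest value rested on 8 UMIs in the shallowest library (exact 95% Poisson interval 3.45 to 15.8 UMIs). Whether the spread differed between the groups was not tested. The mean of the 4 untrained libraries was 90.7 ± 20.1 CPM and that of the 4 trained ones 90.4 ± 34.7 CPM (± SD), and the log2 fold change was 0.02 ± 0.30 (SE; 95% interval -0.60 to 0.64, edgeR adjusted p = 0.99998). The sign of the log2 fold changes of Aif1, C1qa and C1qb turned with the filter, the tool, the block or a left-out library, at sizes up to 0.34.

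**Figure D1:**
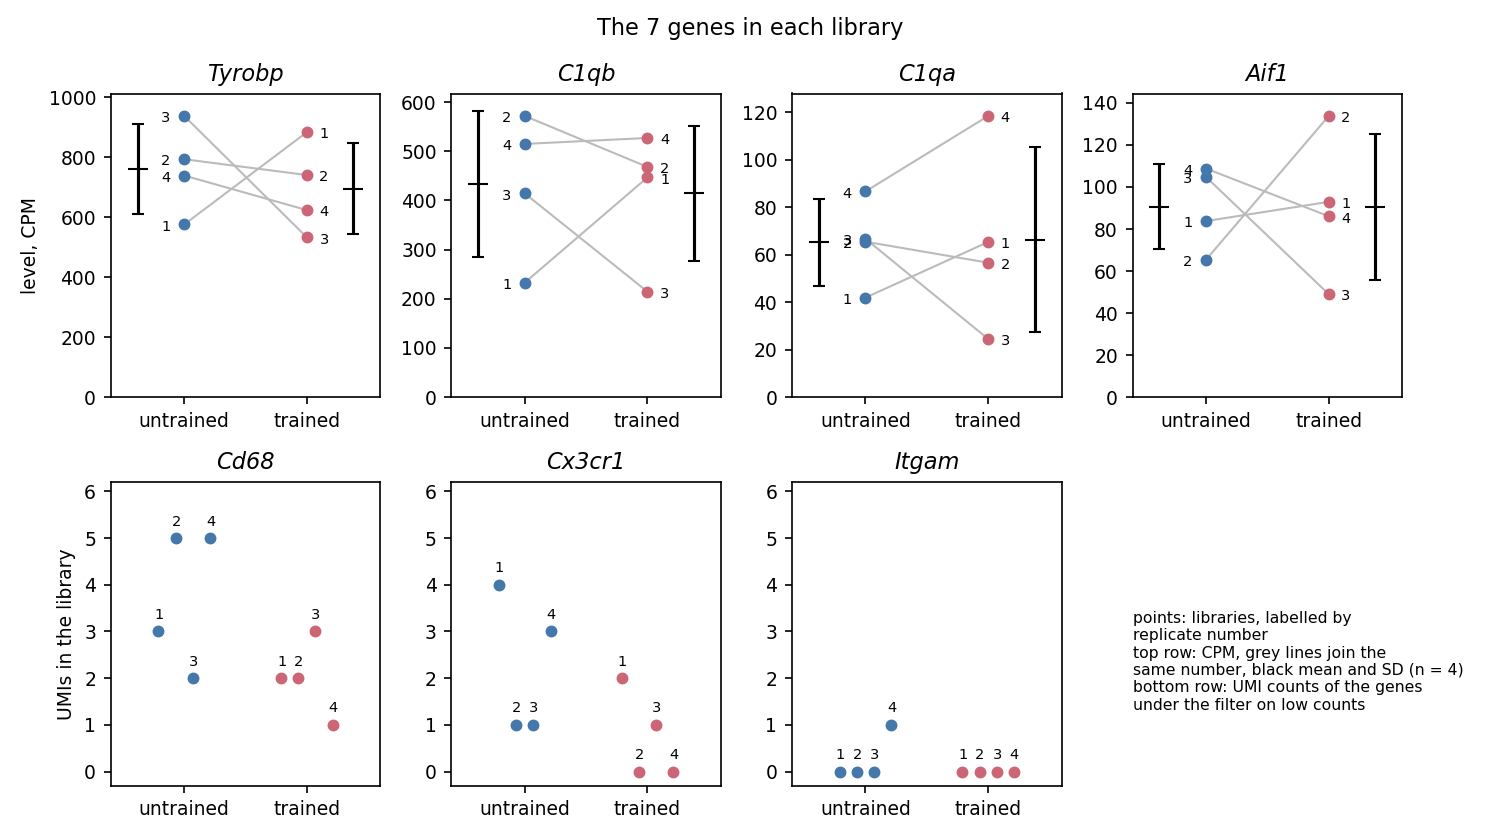
Each panel shows 1 gene, with a point for each library, labelled by its replicate number; the top row is in CPM with the group mean and SD (n = 4) and lines joining libraries of the same number, and the bottom row is in UMIs per library. The trained and untrained points overlap for Tyrobp, C1qb, C1qa and Aif1, and no library holds more than 5 UMIs of Cd68, Cx3cr1 or Itgam.

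The 3 genes under the filter were too sparse for more than their counts. Cd68, the lysosomal gene, had 3, 5, 2 and 5 UMIs in untrained replicates 1 to 4 and 2, 2, 3 and 1 in trained replicates 1 to 4. It was detected in all 8 libraries, and the fit without a filter put its log2 fold change at -0.33 ± 0.72 (SE; edgeR adjusted p = 0.992 over 13048 genes, of which 0.0460% were called). Cx3cr1, the fractalkine receptor, had 4, 1, 1 and 3 UMIs in untrained replicates 1 to 4 and 2, 0, 1 and 0 in trained replicates 1 to 4. It was thus seen in 4 of 4 untrained and 2 of 4 trained libraries. The same fit put its log2 fold change at -0.98 ± 0.98 (SE; edgeR adjusted p = 0.985), and the 95% interval from -2.90 to 0.94 did not exclude a 2-fold fall. The trained libraries were also shallower, with a mean total of 255630 UMIs (SD 97444) against 360994 (SD 88541) for the 4 untrained ones, and a count of 0 in trained replicate 2 or 4 allowed 15.4 or 16.1 CPM, above every Cx3cr1 level measured. Itgam, the complement receptor chain, had 1 UMI in untrained replicate 4 and 0 in the other 7 libraries, so no fold is given.

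For the 4 genes tested, the intervals set a bound on what could have been missed. All 4 had a 95% interval that lay within a 2-fold rise and a 2-fold fall, with and without the replicate block. For C1qa without the block this depended on single libraries. Its interval ran from -1.11 to 0.43 without trained replicate 4 and from -0.60 to 1.06 without untrained replicate 4. Of all genes tested, 80.0% had an interval within a 2-fold change either way without the block and 89.4% with it. In linear terms and without the block, the interval for Tyrobp ran from 0.674 to 1.26 of the untrained level. That for C1qa, the widest of the 4, ran from 0.597 to 1.74. These intervals are for single genes, with no adjustment over the genes tested.

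**Figure D2:**
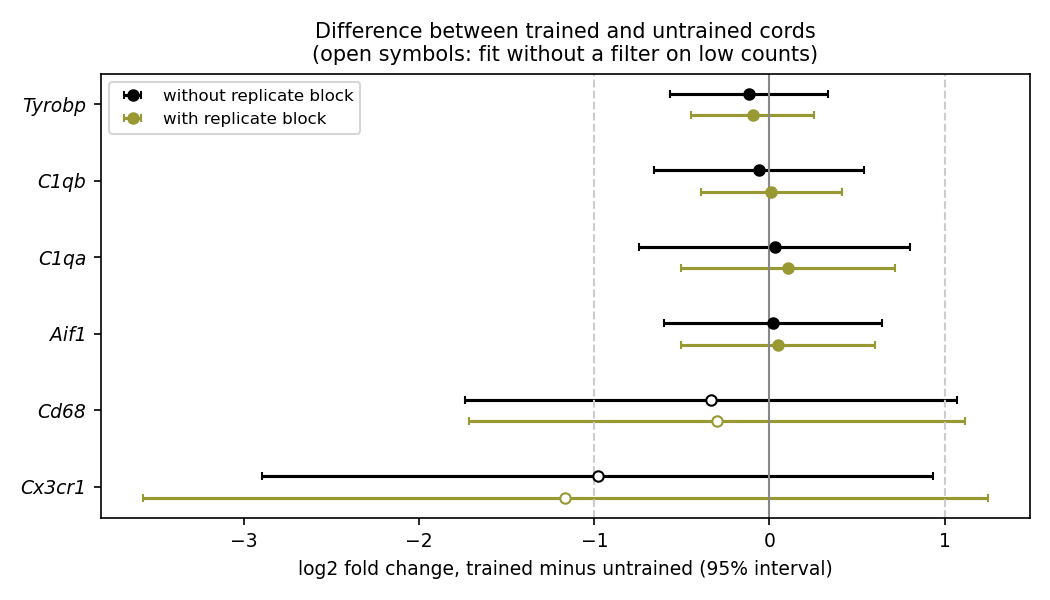
The log2 fold change of trained minus untrained libraries is on the x axis with its 95% interval for 6 genes, in fits without (black) and with (olive) the replicate block; open symbols come from the fit without a filter, and dashed lines mark a 2-fold change. The intervals of Tyrobp, C1qb, C1qa and Aif1 lie between the dashed lines, and those of Cd68 and Cx3cr1 cross at least 1 of them.

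The second comparison set each trained library against the untrained one of the same number. The differences went opposite ways in different numbers, and none of the 4 genes changed in 1 direction throughout. Only 490 of all 4086 genes tested did so, and the lack of a single direction therefore does not set the 4 genes apart. In replicate 1 the trained library was the higher for 4 of 4 genes. There C1qb was 0.92 higher on the log2 CPM scale, Tyrobp 0.61, C1qa 0.57 and Aif1 0.14. In replicate 3 the trained library was the lower for 4 of 4 genes. There the differences ran from -1.23 for C1qa to -0.81 for Tyrobp, with C1qb at -0.93 and Aif1 between C1qa and C1qb. Over all 4086 genes, 48.95% were higher in the trained library of replicate 1 and 49.31% were lower in that of replicate 3.

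The other numbers showed no shared direction. In replicate 2 Aif1 was 0.96 higher in the trained library, while C1qb, C1qa and Tyrobp differed by -0.28, -0.19 and -0.10. In replicate 4 C1qa was 0.42 and C1qb 0.03 higher in the trained library, and Aif1 and Tyrobp differed by -0.32 and -0.24. The summed level of the 7 genes was 953, 1514, 1538 and 1470 CPM in untrained replicates 1 to 4 and 1499, 1410, 846 and 1361 CPM in trained replicates 1 to 4. Thus untrained replicate 1 and trained replicate 3 lay low, and the other 6 libraries lay between 1361 and 1538 CPM. Scaled to plain library totals, untrained replicate 1 stood at 948 CPM and trained replicate 3 at 717 CPM. The other 6 then lay between 1192 and 1489 CPM. Trained replicate 3 was the shallowest library, with 192472 UMIs, while untrained replicate 1 held 384167. The part of depth or tissue sampling in these low values was not tested.

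**Figure D3:**
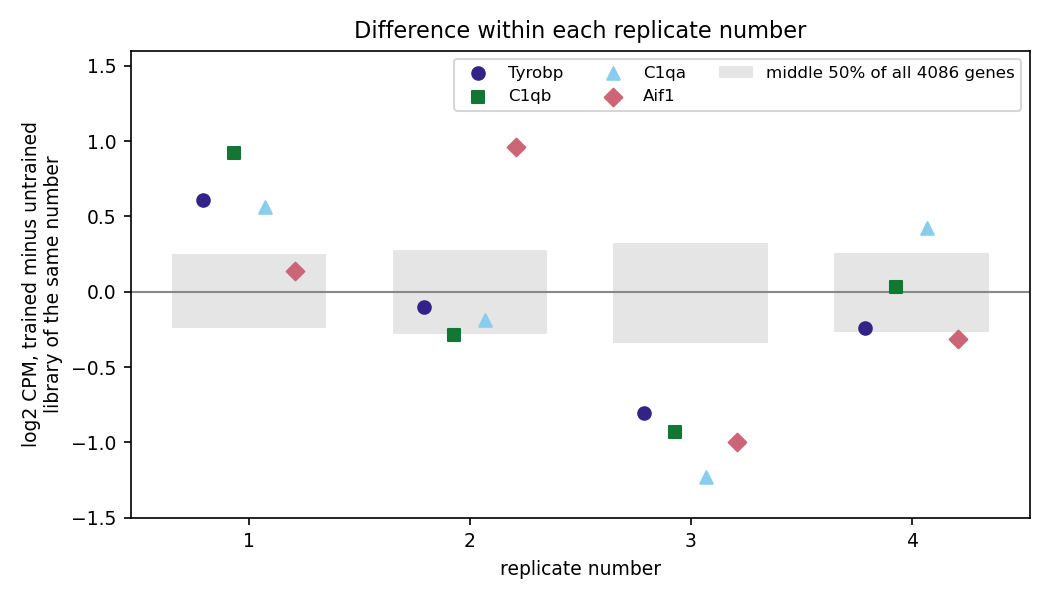
The log2 CPM difference between the trained and the untrained library of the same replicate number is on the y axis, with a symbol for each of 4 genes; grey bars span the middle 50% of all 4086 genes tested. All 4 genes lie above 0 in replicate 1 and below -0.8 in replicate 3, with Aif1 alone inside the grey bar in replicate 1.

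The third comparison asked whether the genes differed by replicate number, with training in the model. What a number marks is not stated in the labels. In edgeR 16.0% of all genes tested differed between numbers (654 genes), and none of the 4 genes did. C1qb came nearest, with levels in replicates 2 and 4 that were 0.63 and 0.61 above replicate 1 on the log2 scale and a level in replicate 3 that differed from it by -0.08. Its unadjusted edgeR p was 0.0255 and its adjusted p 0.105. Without the filter on low counts C1qb passed (edgeR adjusted p = 0.00348 over 13048 genes, 6.32% of them called), while with a filter of 5 CPM in 4 libraries it did not (0.0654). C1qa was 0.88 higher in replicate 4 than in replicate 1, with an edgeR adjusted p of 0.200. Aif1 in replicates 2 to 4 differed from replicate 1 by 0.07, -0.14 and 0.20 on the log2 scale, and Tyrobp by 0.06, 0.01 and -0.10 (edgeR adjusted p of 0.901 and 0.943).

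The correlation between the genes for the C1q chains rested largely on untrained replicate 1 and trained replicate 3, the lowest libraries for both. Over the 8 libraries the log2 CPM values of C1qa and C1qb had a Pearson correlation of 0.86 (two-sided exact permutation p = 0.00528, adjusted p = 0.0317 over the 6 pairs of tested genes). Without those 2 libraries it was 0.41 (exact permutation p = 0.440), so the call was lost. Spearman's rho was 0.71 (exact permutation p = 0.0576, adjusted p = 0.346), so the rank correlation did not pass. Pearson's r was 0.87 within untrained and 0.92 within trained libraries (n = 4 each). Each of these groups holds 1 of the 2 low libraries, so these values rest on them too. Without trained replicates 3 and 4, which lay farthest from the median of C1qa, r was 0.81, with untrained replicate 1 kept. The permutation treats the 8 libraries as exchangeable, whereas same-numbered libraries deviated together, so the p of 0.00528 may be too small. Each replicate number holds 2 libraries, too few for a correlation within it. The differences between same-numbered libraries had the same sign for C1qa and C1qb in 4 of 4 numbers. In replicates 1 and 3, however, Tyrobp and Aif1 shared that sign too, and in replicate 4 the C1qb difference was only 0.03.

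The other pairs of genes did not pass. C1qb and Tyrobp had a Pearson correlation of 0.65 (exact permutation adjusted p = 0.249) and a rho of 0.31 (adjusted p = 0.554). Without untrained replicate 1 and trained replicate 3 the Pearson correlation of C1qb and Tyrobp was -0.66, so the positive relation rested on those libraries. Aif1 had Pearson correlations of 0.54 with C1qa, 0.50 with C1qb and 0.53 with Tyrobp. C1qa had one of 0.45 with Tyrobp. The exact permutation adjusted p of these pairs lay between 0.249 and 0.266. Without untrained replicate 1 and trained replicate 3 the correlations were, in the same order, -0.245, -0.61, 0.03 and -0.71. These positive values thus rested on those libraries too.

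C1qb gave 4.45 to 8.75 times as many UMIs as C1qa in a library. In untrained replicates 1 to 4 C1qa made up 15.2%, 10.3%, 13.9% and 14.4% of the UMIs of both genes. In trained replicates 1 to 4 it made up 12.7%, 10.8%, 10.3% and 18.3%. Over all libraries the share was 13.3% (155 of 1166 UMIs, exact 95% interval 11.4% to 15.4%), and the exact interval of each of the 8 libraries included that value. The untrained shares overlapped with the trained ones, which held both the lowest and the highest value. In 3′ counting a UMI stands for 1 captured transcript whatever its length, but the capture of different transcripts need not be equal, so the share describes counts and not the makeup of the C1q protein.

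**Figure D4:**
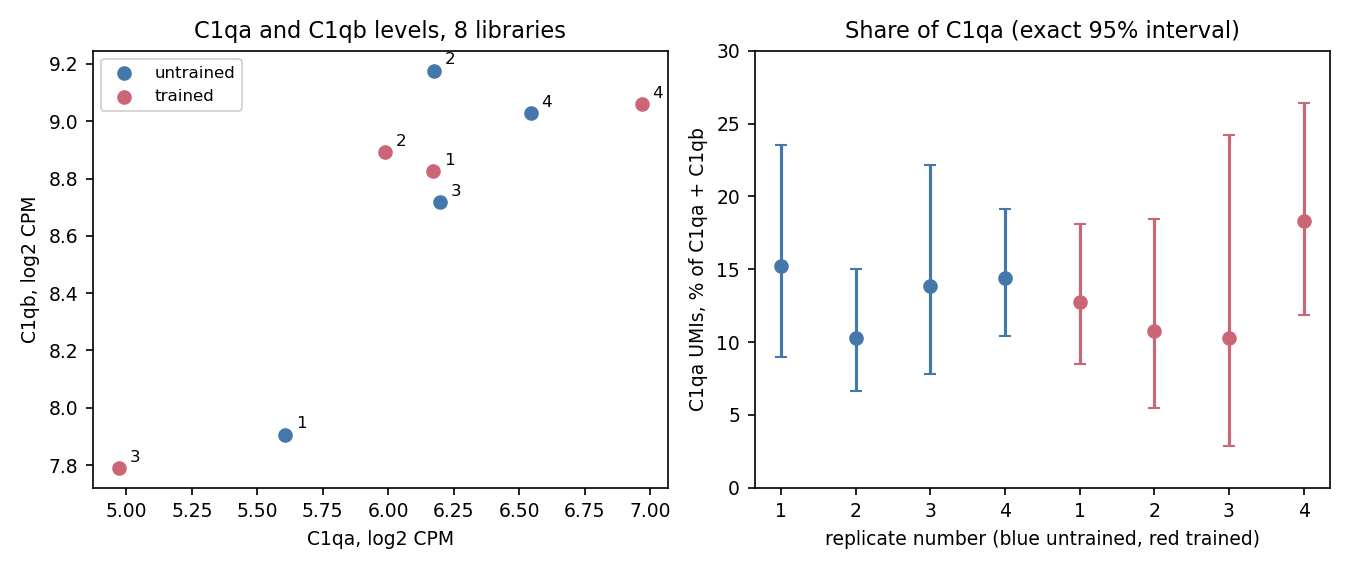
Left, C1qb against C1qa in log2 CPM for 8 libraries, coloured by group and labelled by replicate number; right, the C1qa share of the UMIs of both genes in each library with its exact 95% interval. Untrained replicate 1 and trained replicate 3 lie lowest for both genes, and the shares run from 10.3% to 18.3% with overlapping intervals.

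The genes whose pattern was most like the summed level of the 7 can be named by identifier only. Of the 4082 other genes tested, ENSRNOG00000009878 had the highest Pearson correlation with it over the 8 libraries, 0.96, with a rho of 0.64. It held 1 to 19 UMIs per library, and without untrained replicate 1 and trained replicate 3 its correlation was 0.32. ENSRNOG00000036745 came next with 0.96, a rho of 0.95 and 0.80 without those libraries. It stood at 55.0 CPM in untrained replicate 1, 49.0 CPM in trained replicate 3 and 86.1 to 129 CPM in the other 6 libraries. As the highest of 4082 values over 8 libraries, these are a description without a test.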

How the data were processed

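RNA of the lower spinal cord was measured by CEL-Seq2, a 3′-end method with UMIs, on an Illumina HiSeq1500, per the labels' protocols. The submitters' processing notes name HISAT2 2.0.4, HTSeq 0.6.0 and the rat build Rnor_6.0. The UMI length and the collapsing of reads to UMIs are unstated in the labels read here. The authors deposited raw UMI counts for 32883 Ensembl genes in 8 libraries, without normalisation. The largest count of any gene was 4049, and the largest of the 7 genes was 352.

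Groups came from the labels and replicate numbers from the titles. The symbols of the 7 identifiers came with the list of genes; 0 identifiers matched the RefSeq gene table at hand, so the lists of other cell types and pathways drawn up for this work were not read. The genes, lists and tests were chosen with earlier results of these data known. The named genes are the 7, plus those most correlated with their summed CPM, of which the first 2 are printed.

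Counts were analysed in R 4.3.3 with edgeR 4.0.16: filterByExpr (a count of 10 in 4 libraries, 4086 genes kept), TMM scaling, the quasi-likelihood F test and Benjamini-Hochberg adjustment over all genes tested, with 0.05 as the threshold. Each SE was computed as the log2 fold change over the root of F. CPM uses the TMM-scaled totals of the genes kept; log2 CPM adds a prior count of 2. The test for replicate number had training in the model. Correlations used exact permutation over all orders of 8 libraries. The fits were run on simulated counts, with the spread taken from the fit with the block and no difference between replicate numbers. That run does not measure their errors on these data. Alternatives were median-ratio scaling, DESeq2 1.42.0, limma-voom (limma 3.58.1), other filters, the replicate block and left-out libraries.

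Whether same-numbered libraries deviated together from their group means was checked. The correlations across genes were 0.34, 0.34, 0.30 and 0.53 for replicates 1 to 4, each above 0.1. Same-numbered libraries were therefore treated as pairs in the second comparison and in the fits with the replicate block. The main fit of training left the pairing out. The pairing rests on the data, since the labels leave the meaning of a number unsaid. Chi-square values between libraries of a group were 2.83 to 5.61 times their degrees of freedom, so none looked like a library deposited again.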

Additional observations from a re-analysis of the deposited data

Results flagged for a closer look

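Each of the 7 genes and their summed level was examined in each group of 4 libraries for a value far from the other 3. Leaving out Itgam, 1 of 14 sets held such a value, where chance gives about 1 in 20 sets. The summed level of the 7 genes in untrained replicate 1, 953 CPM, lay below the other untrained libraries by a gap of 0.883 of the group's range, above Dixon's limit for 4 values. Scaled to plain library totals, untrained replicates 1 to 4 stood at 948, 1455, 1341 and 1460 CPM. Without Tyrobp the sums were 377, 720, 600 and 730 CPM. In both of these sets untrained replicate 1 was still the lowest library, but its gap was a smaller part of the range and lay below Dixon's limit. The flag therefore held neither with plain library totals nor without Tyrobp. Itgam in untrained replicate 4 stood at 2.22 CPM against 0 in the other 3, on 1 UMI. A single UMI in a set of zeros always stands apart by this measure, so the Itgam value carries no weight.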

How the results depend on the processing

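The log2 fold changes of Tyrobp, C1qb, C1qa and Aif1 lay between -0.37 and 0.33 under every alternative run, and none of the 88 values for the 7 genes passed the threshold. Their direction was not stable in 25 of the 88. The value of Aif1 went from 0.02 to -0.0059 in limma-voom, -0.0225 with no filter, -0.0020 with 5 CPM in 4 libraries, -0.0076 with the replicate block in DESeq2 and -0.0001 with the replicate block and no filter. That of C1qa went from 0.03 to -0.0484 in limma-voom, -0.0195 with no filter and -0.0092 with the replicate block in DESeq2. That of C1qb went from -0.06 to 0.01 with the replicate block and 0.0268 with it in limma-voom. With a library or a same-numbered pair left out, the ranges were -0.29 to 0.25 for Aif1, -0.34 to 0.33 for C1qa, -0.32 to 0.21 for C1qb and -0.37 to 0.10 for Tyrobp. The causes were not tested. The replicate block changed no call of these genes. Over all genes, 0 were called between trained and untrained, and 6 with no filter, 2 with the replicate block in edgeR, 1 with it in DESeq2, 2 with it in limma-voom and 18 with it and no filter; leaving out libraries or pairs gave 0 to 5. Without Tyrobp the summed level fell, by construction, from 1369 to 607 CPM in untrained and from 1279 to 583 CPM in trained libraries. The count of genes that differed by replicate number stayed within 1.5 times of 654 in the alternatives run. The correlation of C1qa and C1qb was 0.41 in place of 0.86 without untrained replicate 1 and trained replicate 3, an alternative chosen after seeing the data. In the edgeR fits, 69 of the 72 intervals of the 4 tested genes lay within a 2-fold change either way. The exceptions were C1qa without trained or untrained replicate 4, and Aif1 with the replicate block and no filter (-4.74 to 4.74), where the SE is a ratio of values near 0. At this depth a 2-fold change of Cd68, Cx3cr1 or Itgam was not excluded.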
